A study of Mus musculus with 6 samples.

Results

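The miR-455 and miR-140 hairpins each give 2 mature miRNAs, a 5p arm and a 3p arm, and all 4 products (miR-455-5p, miR-455-3p, miR-140-5p and miR-140-3p) were found among the 1907 distinct mature miRNAs of the deposited table. Both hairpins were chosen by name for their link to cartilage, and miR-455 also by its measured female to male difference in these same libraries. The female to male values of the 4 arms are therefore given as a description, and support nothing by themselves. The 6 small RNA libraries came from liver of healthy C57BL/6N mice, 12 weeks of age, on a chow diet, 3 females (the female group) and 3 males (the male group). No transgene, deletion or treatment is named for either group. Total counts ranged from 3285249 to 16444674 per library, with the highest in male replicate 3. On the first principal component of all tested miRNAs the 3 females lay on one side and the 3 males on the other, and male replicate 2 lay farthest out. Sex and the running order of the sample titles, males before females, cannot be told apart.

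A miRNA hairpin is cut out of a longer transcript, its loop is removed, and either strand of the remaining duplex can be loaded into an Argonaute protein, where bases 2 to 8, the seed, select the target mRNAs. Both hairpins lie inside genes for other products. Col27a1 encodes a fibrillar collagen of cartilage, and Wwp2 encodes a ubiquitin ligase. In chondrocytes miR-140 is under the control of the transcription factor Sox9 and is needed for normal skeletal growth, and miR-455 is expressed beside it; miR-455 is also known for promoting brown fat differentiation. Liver is not the tissue for which either is best known. Bulk tissue was sequenced, so fewer cells of a type and less of a miRNA per cell cannot be told apart.

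The mature sequences are shown because the miR-455 arms differ in seed and in their first base, to which the arm values below refer. They are RefSeq entries on GRCm38.p6, the build that mm10 names, written 5′ to 3′ with the seed in capitals, and their coordinates were the same as those of the table. Of the 4 members, 3 matched an entry.
miR-455-5p: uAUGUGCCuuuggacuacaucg
miR-455-3p: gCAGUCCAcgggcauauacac
miR-140-3p: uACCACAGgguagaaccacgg
The 3 seeds differed from each other. On chromosome 4 (plus strand), miR-455-5p spans 63256867 to 63256888 and miR-455-3p 63256904 to 63256924, with 15 bases between them. In GENCODE M21 both lie in the Mir455 gene within intron 10 of the coding Col27a1 transcript, which has 61 exons, and all 4 Col27a1 transcripts that span them have an intron there. On chromosome 8 (plus strand), miR-140-5p spans 107551249 to 107551270 and miR-140-3p 107551288 to 107551308, with 17 bases between them. Both lie in the Mir140 gene within intron 16 of a coding Wwp2 transcript of 24 exons, and 3 of the 4 Wwp2 transcripts that span them have an intron there. The hosts' own mRNA was not measured in these libraries.

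The 3 members with a sequence had no near-identical copy, with which reads could be shared, among the 1623 miRNAs that had a RefSeq sequence. The closest ungapped match to miR-455-5p was miR-6963-3p, with 5 mismatches over 18 bases. For miR-455-3p it was miR-466i-3p, with 6 mismatches over 18 bases. Only one other miRNA of this set carried the seed of miR-455-5p, miR-5129-3p, with 7 counts summed over all 6 libraries. The seed of miR-140-3p recurred in miR-497b, with 12.5 counts in sum, and that of miR-455-3p in none. Neither miR-5129-3p nor miR-497b had enough counts to be tested.

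All 4 arms were moderately abundant in liver. Levels are counts per 1000000 (CPM) scaled by the TMM factors of edgeR; because a miRNA is about as long as its read, no correction for length was made. The 5p arm of miR-455, the more abundant arm of its hairpin, stood at 190, 174 and 170 CPM in female replicates 1, 2 and 3 and at 396, 318 and 303 CPM in male replicates 1, 2 and 3. Every male library lay above every female library. The 3p arm of miR-455, with a seed of its own, stood at 28.2, 19.4 and 29.4 CPM in the females and at 52.9, 41.6 and 61.8 CPM in the males, again without overlap. Its lowest value, in female replicate 2, rested on 70 counts, the lowest count of any member in any library.

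The miR-140 arms lay closer between the groups. miR-140-5p, the arm best known from cartilage, stood at 63.9, 69.5 and 63.3 CPM in the females and at 72.5, 56.0 and 85.3 CPM in the males. The female values lay inside the range of the male values, between male replicate 2 below and male replicates 1 and 3 above. miR-140-3p, the more abundant arm in liver, stood at 196, 212 and 196 CPM in the females and at 161, 181 and 180 CPM in the males. Here every female library lay above every male library, in the direction opposite to miR-455.

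**Figure D1:**
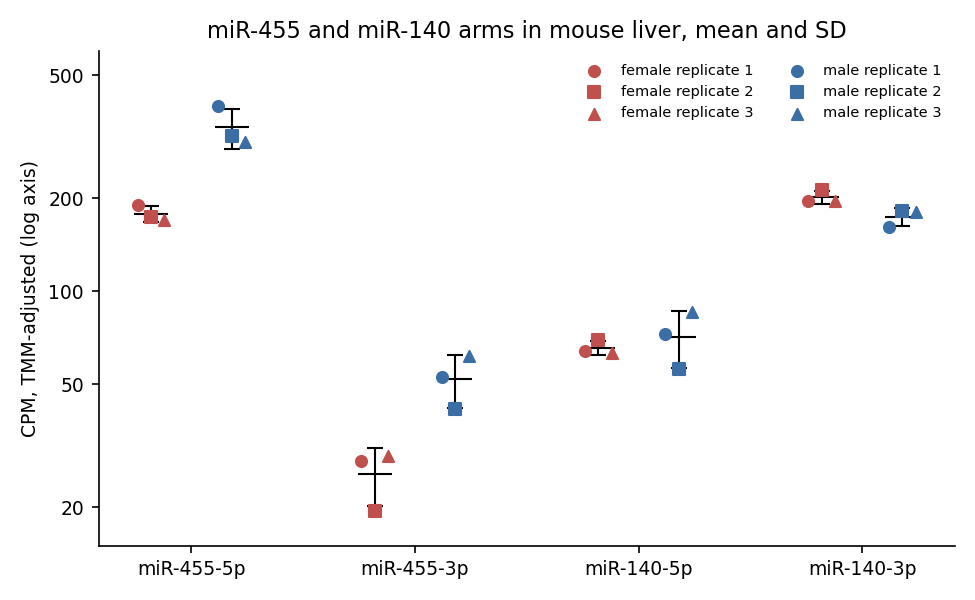
Level of each arm (TMM-adjusted CPM, log axis) in 3 female and 3 male liver libraries; points are libraries, horizontal bars the mean and whiskers the SD. Both miR-455 arms are lower in every female library than in every male library, from 170 to 190 against 303 to 396 CPM for miR-455-5p.

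Among the 370 tested miRNAs, ordered by mean CPM, miR-455-5p took place 89, miR-140-3p place 98, miR-140-5p place 136 and miR-455-3p place 166. In all 3 female libraries the order of the arms was miR-140-3p, miR-455-5p, miR-140-5p, miR-455-3p. In all 3 male libraries the first 2 changed places. The ranges of neighbours in that order did not overlap within either sex, except miR-140-5p and miR-455-3p in males, whose ranges of 56.0 to 85.3 and 41.6 to 61.8 CPM did. Among the females, the coefficient of variation (SD over mean) was 4.60% for miR-140-3p, 5.19% for miR-140-5p and 5.92% for miR-455-5p, and 21.3% for the less abundant miR-455-3p. The median over all tested miRNAs was 14.4% in females and 18.5% in males. The tested miRNAs had a median level of 26.5 CPM and the 4 members one of 128 CPM, and coefficients were not compared at like levels. In males the same coefficient was 6.52% for miR-140-3p, 14.8% for miR-455-5p, 19.5% for miR-455-3p and 20.6% for miR-140-5p.

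The comparison of the sexes asks which miRNAs differ between female and male liver. In females miR-455-5p averaged 178 ± 10.5 CPM, and in males 339 ± 50.2 CPM (SD, n = 3 each), which is 1.90-fold higher in males. The log2 fold change, female over male, was -0.93 (SE 0.16). The averages of miR-455-3p were 25.7 ± 5.47 CPM for the females and 52.1 ± 10.1 CPM for the males (SD, n = 3 each), 2.03-fold higher in males, with a log2 fold change of -1.02 (SE 0.24). The 2 arms of the hairpin thus differed between the sexes by nearly the same factor.

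For miR-140-5p the females averaged 65.6 ± 3.40 CPM and the males 71.3 ± 14.7 CPM (SD, n = 3 each), with a log2 fold change of -0.13 (SE 0.20). This sign turned to 0.0087 with no TMM factor and to 0.027 without male replicate 3. For miR-140-3p the females averaged 201 ± 9.25 CPM and the males 174 ± 11.3 CPM (SD, n = 3 each), 1.16-fold higher in females, with a log2 fold change of 0.21 (SE 0.15). Without male replicate 2, the log2 fold changes of miR-455-5p, miR-455-3p, miR-140-5p and miR-140-3p were -0.97, -1.15, -0.27 and 0.24.

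Over all 370 tested miRNAs, 25 (6.76%) had an adjusted p under 0.05 in the edgeR quasi-likelihood test, and 13 of these (3.51% of the 370) were lower in females. Both miR-455 arms are among the 13, which is how they were chosen, so this count of 2 of 4 members tests nothing; neither miR-140 arm is among the 25. The passing miRNAs split into 12 higher and 13 lower in females with TMM, 13 and 7 with no TMM factor, and 7 and 19 with upper-quartile factors. The arm miR-455-3p, but not miR-455-5p, left the set of called miRNAs with no TMM factor and without female replicate 2, female replicate 3 or male replicate 3. Groups did not overlap, with females lower, for 41 of the 370 miRNAs (11.1%), both miR-455 arms among them, and with females higher for 39 (10.5%), miR-140-3p among them. The median log2 fold change was -0.53 over the 4 members and -0.01 over all tested miRNAs. A log2 fold change below that of miR-455-5p was seen for 11 tested miRNAs, and below that of miR-455-3p for 8.

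**Figure D2:**
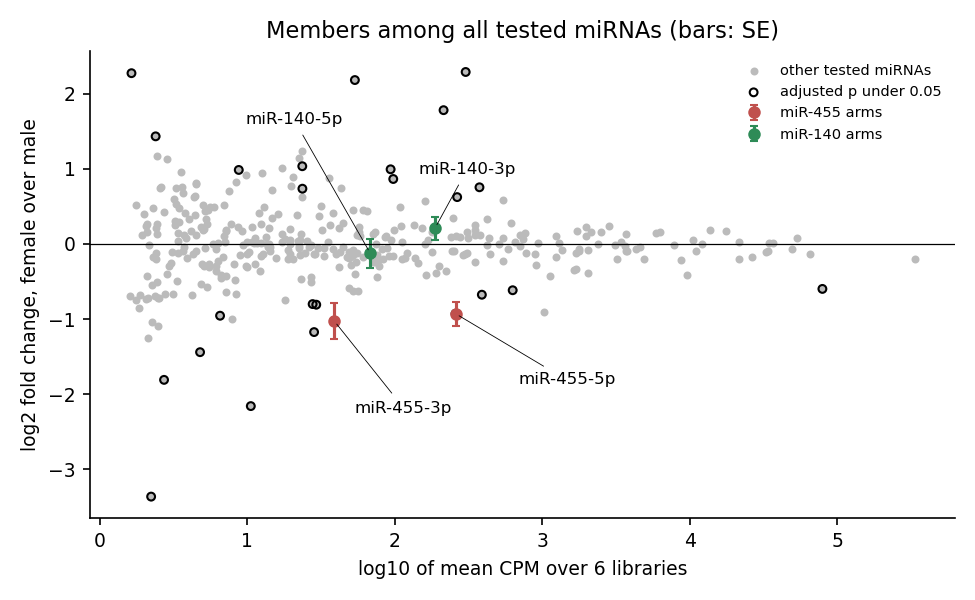
Log2 fold change, female over male, against log10 of the mean CPM for 370 tested miRNAs; open circles mark an adjusted p under 0.05 in edgeR and bars on the members are standard errors. The miR-455 arms, which also passed, lie at -0.93 and -1.02 and the miR-140 arms at -0.13 and 0.21.

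Within a single library the ratio of the hairpins does not depend on scaling. Summed over both arms, miR-455 had 1322, 699 and 700 counts in female replicates 1, 2 and 3, against 1573, 1016 and 908 counts for miR-140. In male replicates 1, 2 and 3 miR-455 had 2838, 1521 and 5745 counts, against 1475, 1005 and 4174 for miR-140. The ratio of miR-455 to miR-140 was 0.840, 0.688 and 0.771 in the females and 1.92, 1.51 and 1.38 in the males. miR-140 was thus the more abundant hairpin in each female library, and miR-455 in each male library. The mean ratio was 0.766 ± 0.0763 in females and 1.60 ± 0.285 in males (SD, n = 3 each). As part of the contrast that chose miR-455, this difference between the sexes was not tested.

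Over the 6 libraries together the mean log2 ratio of miR-140 to miR-455 was -0.14 ± 0.61 (SD, n = 6), above 0 in the 3 females and below 0 in the 3 males. The sexes have opposite signs through the contrast that chose miR-455, so no test is read from this mean. The ratio of miR-455-5p to miR-140-3p, the more abundant arms, ran from 0.822 to 0.970 in females and from 1.69 to 2.46 in males. Between the less abundant arms, miR-455-3p over miR-140-5p, it ran from 0.279 to 0.464 in females and from 0.724 to 0.743 in males. In both arm pairs the sexes did not overlap.

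**Figure D3:**
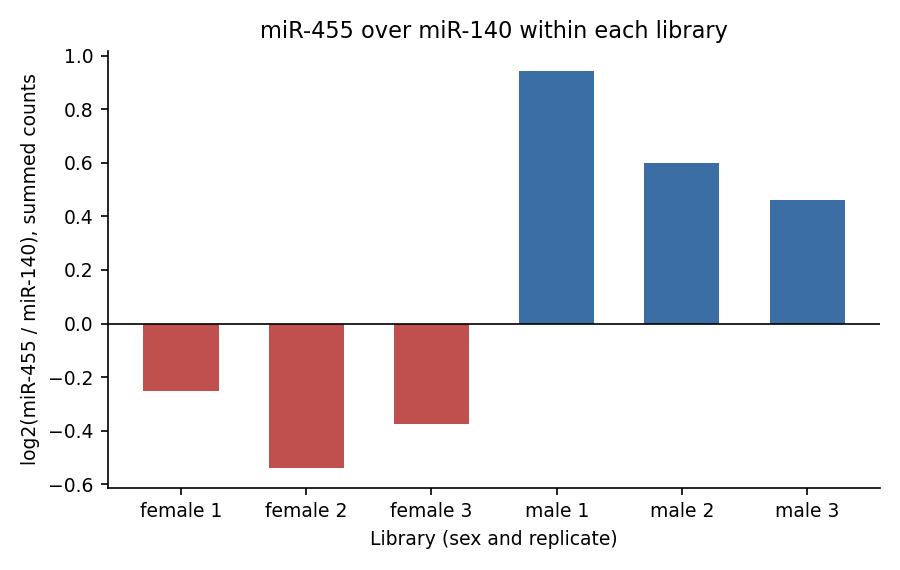
Log2 ratio of miR-455 to miR-140 (counts summed over both arms, 0.5 added) in each library; bars start at 0, where the hairpins are equal. The 3 female bars lie below 0 and the 3 male bars above it, at ratios of 0.688 to 0.840 and 1.38 to 1.92.

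The hairpins differed in which arm dominated, a measure that the choice of members did not use. The 5p arm made up 87.1%, 90.0% and 85.3% of the miR-455 counts in female replicates 1, 2 and 3 and 88.2%, 88.4% and 83.1% in male replicates 1, 2 and 3. The 95% exact binomial intervals, which cover counting error only, ran from 82.4% to 87.8% in female replicate 3, with 700 counts, and from 82.1% to 84.0% in male replicate 3, with 5745 counts. The 5p arm of miR-455 was thus the major one in every library, and the female and male shares overlapped. The mean log2 ratio of 5p to 3p was 2.76 ± 0.31 (SD, n = 6 libraries), a 6.78-fold excess of 5p seen in 6 of 6 libraries (p = 0.03125, adjusted p = 0.0417, exact two-sided sign-flip permutation test over libraries, Benjamini-Hochberg over the 4 within-library ratios). A p of 0.03125 is the smallest that 6 libraries allow. The arms of the 92 hairpins with both arms tested differed by a median of 4.37 on the log2 scale, with a median SD of 0.32. Such a p is therefore not particular to miR-455 or miR-140.

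The 3p arm dominated for miR-140. The 5p arm made up 24.6%, 24.7% and 24.4% of the miR-140 counts in female replicates 1, 2 and 3 and 31.1%, 23.6% and 32.2% in male replicates 1, 2 and 3. Male replicate 2 lay with the females, whereas male replicates 1 and 3 lay above every other library. The intervals of male replicate 1 (28.7% to 33.5%) and male replicate 3 (30.8% to 33.6%) did not overlap those of the other 4 libraries, the highest of which ended at 27.5%. The mean log2 ratio of 5p to 3p was -1.46 ± 0.27 (SD, n = 6 libraries), a 2.75-fold excess of 3p in 6 of 6 libraries (p = 0.03125, adjusted p = 0.0417, exact two-sided sign-flip permutation test). The difference between the hairpins in this log2 ratio was 4.22 ± 0.50, with the same sign in 6 of 6 libraries (p = 0.03125, adjusted p = 0.0417, exact two-sided sign-flip permutation test). Because the hairpins had opposite signs in every library, this p was fixed by the arm ratio of each and adds no evidence of its own. Ligation and amplification can favour one sequence over another, so an arm ratio is that of counts and may not be that of molecules in the cell; the size of this effect was not measured here.

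**Figure D4:**
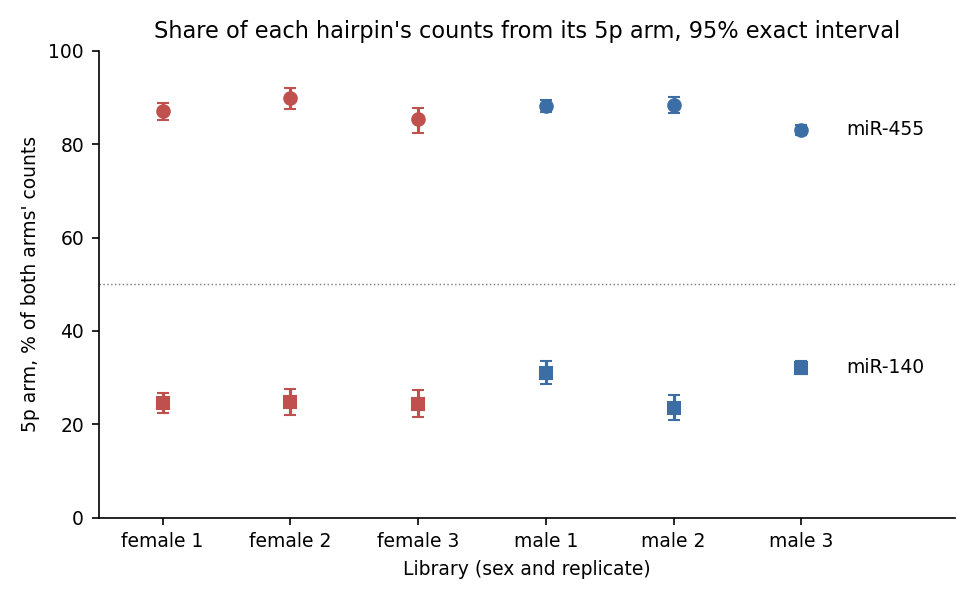
Share of each hairpin's counts that came from the 5p arm (%) in each library (red female, blue male), with 95% exact binomial intervals; circles are miR-455, squares miR-140 and the dotted line marks equal arms. miR-455 lies between 83.1 and 90.0% and miR-140 between 23.6 and 32.2%.

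Among the 92 hairpins for which both arms were tested, 49 had the 5p arm and 43 the 3p arm as the more abundant on average. Both members were less one-sided than the median hairpin, whose arms differed by 4.37 on the log2 scale. A smaller difference than that of miR-455, 2.76, was seen for 27 of the 92, and a smaller one than that of miR-140, 1.46, for 19. The SD of the log2 arm ratio over the 6 libraries was 0.31 for miR-455 and 0.27 for miR-140, beside a median of 0.32. In the sequences printed above, the more abundant arm of each hairpin, miR-455-5p and miR-140-3p, starts with U, and the less abundant miR-455-3p starts with G. Of the more abundant arms with a RefSeq sequence, 44 of 82 started with U (53.7%), and of the less abundant arms 18 of 79 (22.8%).

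**Figure D5:**
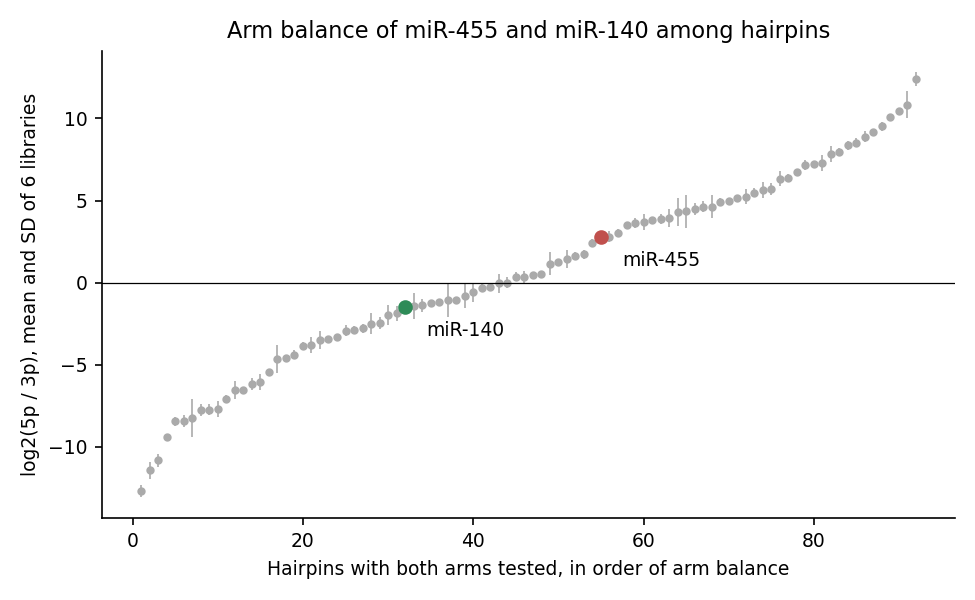
Log2 ratio of 5p to 3p counts for 92 hairpins with both arms tested, in rising order; points are means and bars the SD of 6 libraries. miR-455 lies at 2.76 and miR-140 at -1.46, both nearer to 0 than the median size of 4.37.

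The profile of each member over the libraries was compared with those of the other tested miRNAs by the root mean square difference of log2 CPM values, each centred on its own mean over the 6 libraries. The miRNAs most like miR-455-5p were miR-21b (0.16 log2 units), miR-1957a (0.17) and miR-202-3p (0.21), against a median of 0.54 to all tested miRNAs. Its partner arm, miR-455-3p, came in place 7 of 369 at 0.28. Reads of miR-21b can be shared with miR-21a-5p, whose sequence is close. For miR-455-3p the closest outside the members were miR-1957a (0.17), miR-202-3p (0.30) and miR-3969 (0.33), and miR-455-5p held place 2 of 369. These 4 miRNAs all had negative log2 fold changes, the pattern that chose miR-455: miR-1957a stood at 23.0, 17.4 and 23.7 CPM in the females and 41.5, 33.1 and 37.7 CPM in the males.

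The miR-140 arms had other neighbours. Closest to miR-140-5p were miR-200c-3p (0.08), a miRNA of epithelial cells, miR-27a-3p (0.10) and miR-98-5p (0.10), each lowest in male replicate 2 among the males and highest in male replicate 3. Closest to miR-140-3p were miR-152-3p (0.07), miR-27b-3p (0.07) and miR-16-5p (0.08). The 2 miR-140 arms stood at 0.25 from each other, which was place 102 of 369 for miR-140-5p and place 141 of 369 for miR-140-3p. The profile of miR-455-5p lay 0.59 from that of miR-140-3p, farther than its median of 0.54, but 0.47 from that of miR-140-5p, nearer than this median. Likewise miR-455-3p lay 0.68 from miR-140-3p and 0.51 from miR-140-5p, beside its median of 0.62. These distances include the female to male difference that chose miR-455.

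None of the other tested miRNAs linked to cartilage passed the threshold. Of 22 listed, 14 were tested, and 0 were higher and 0 lower after adjustment in edgeR, DESeq2 or limma-voom, with a median log2 fold change of 0.0039 and negative values for 7 of 14. Over all 370 tested miRNAs, 25 (6.76%) passed in edgeR, and 0 of 14 is near that share. At an unadjusted p under 0.05 in edgeR, which 67 of the 370 tested miRNAs (18.1%) had, there was 1, miR-199a-3p, which is also a stromal marker. The most abundant were miR-30a-5p, at a mean of 13839 CPM and a log2 fold change of 0.18, and miR-101a-3p, at 10499 CPM and 0.05. The H19-encoded miR-675-5p was at 0 in every library. Of 16 miRNAs linked to brown fat, 12 were tested; 1 was higher in females, the p53-induced miR-34a-5p (332 ± 18.1 against 96.8 ± 25.5 CPM, SD, n = 3 each), and 0 were lower, with a median of -0.02 and 3 of the 12 at an unadjusted p under 0.05 in edgeR. Per 1000 counts of the cartilage-linked list, miR-455 had 5.73, 4.64 and 5.68 counts in the females and 11.4, 10.9 and 10.4 in the males. The same ratio for miR-140 was 6.82, 6.74 and 7.37 in the females and 5.92, 7.18 and 7.53 in the males. Most of the list's sum came from miR-30a-5p and miR-101a-3p, and the ratios of miR-455 repeat the contrast that chose it.

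Markers of stromal cells (fibroblast-like cells and smooth muscle) and of biliary cells lay mostly on the same side of 0 as miR-455. Of the 370 tested miRNAs, 192 (51.9%) had a negative log2 fold change. Of 10 tested stromal markers 9 had a negative log2 fold change, with a median of -0.22, and 0 passed the threshold in either direction in edgeR, DESeq2 or limma-voom. Over all 370 tested miRNAs, 25 (6.76%) passed in edgeR. At an unadjusted p under 0.05 in edgeR there were 3 of the 10, miR-199a-3p, miR-199b-3p and miR-10b-5p, all lower in females, as were 33 of the 370 tested miRNAs (8.92%). The most abundant, miR-143-3p, averaged 8727 CPM over the 6 libraries with a log2 fold change of -0.21 (SE 0.11), and miR-199a-3p averaged 2051 CPM with -0.38 (SE 0.12). The values of miR-199b-3p ran parallel to those of miR-199a-3p over the 6 libraries, with a log2 fold change of -0.35. These markers may therefore not count as separate ones in the numbers above. On the stromal list, 3 of the 10 markers are also on the cartilage-linked list. The summed level of the list ran from 12117 to 14975 CPM in females and from 15678 to 16372 CPM in males. Per 1000 counts of the stromal list, miR-455 had 14.6, 13.4 and 16.5 counts in the females and 28.7, 21.9 and 23.0 in the males, without overlap of the sexes. For miR-140 the same ratio was 17.4, 19.5 and 21.4 in the females and 14.9, 14.5 and 16.7 in the males, also without overlap and with the females higher. This separation was not particular to the stromal list. Per 1000 counts of the hepatocyte list, miR-140 had 0.691 to 0.756 counts in females and 0.539 to 0.638 in males. The sexes were apart in the same direction for the brown fat-linked and biliary lists. They overlapped for the cartilage-linked, endothelial, leukocyte, erythroid and muscle lists, and for the pancreas list the males were higher. The ratios of miR-455 repeat the contrast that chose it and test nothing, and miR-143-3p took most of the stromal list's sum.

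The other marker lists were measured in the same way. All 6 biliary markers had a negative log2 fold change, with a median of -0.22, and all 6 leukocyte markers a positive one, with a median of 0.34. Both arms of 1 hairpin are on the leukocyte list. Markers of a list may therefore not count as separate ones in these numbers. The hepatocyte markers, with 5 tested, a median of 0.17, 1 negative value and the growth hormone-dependent miR-802-5p the 1 that passed, higher in females at 503 ± 95.9 against 103 ± 30.9 CPM (SD, n = 3 each), summed to 370699 to 374504 CPM in females and 396928 to 440473 CPM in males. The negative value was that of miR-122-5p, named after its values were seen, which took most of that sum. The females averaged 315840 ± 556 CPM of it and the males 364079 ± 22010 CPM (SD, n = 3 each; log2 fold change -0.21, SE 0.06, adjusted p = 0.053 in edgeR). Both miR-122-5p and miR-802-5p had an unadjusted p under 0.05. The 6 leukocyte markers had 1 higher in females, the myeloid miR-223-3p, and sums of 4483 to 5064 against 3359 to 4821 CPM. miR-223-3p was not called by limma-voom. None of the 2 endothelial, 5 erythroid, 6 biliary and 2 muscle markers tested passed in edgeR, DESeq2 or limma-voom, and 0 of them had an unadjusted p under 0.05 in edgeR. Over all 370 tested miRNAs these shares were 6.76% after adjustment and 18.1% unadjusted in edgeR. Of the 5 erythroid, 2 endothelial and 2 muscle markers, 1, 1 and 0 had a negative log2 fold change. Sums in females and males were 67777 to 71815 and 68763 to 76034 CPM for the endothelial, 230 to 391 and 242 to 289 CPM for the erythroid, and 1575 to 1774 and 1698 to 1994 CPM for the biliary list. Muscle markers summed to 16.5 to 34.9 CPM in females and 19.1 to 34.5 CPM in males. The pancreas list, with miR-375-3p alone tested and higher in females (not in DESeq2 or limma-voom), summed to at most 5.12 CPM in females and 2.13 CPM in males. No marker in the table was at 0 in all 6 libraries. The part of other cell types in the levels of miR-455 and miR-140 was not tested beyond these values.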

How the data were processed

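Estimated counts per mature miRNA were deposited by the authors, not normalised; 98.9% of the values, and all 24 of the members, were whole. Partek, Bowtie and mm10 are named in the submitters' processing notes; trimming, multiple matches and molecular identifiers are not stated (not given in the sources used here). Exact repeats (138 of 2045 rows) were dropped, values rounded, and libraries grouped by labelled sex, with replicates numbered in accession order. No 2 libraries were duplicates (chi-square per degree of freedom at least 25.4).

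The female to male contrast was fitted with edgeR 4.0.16 in R 4.3.3: quasi-likelihood test, robust option, TMM, filterByExpr (minimum count 10, minimum total 15), and Benjamini-Hochberg adjustment over 370 miRNAs, which held at least 99.97% of each library. Standard errors are the log2 fold change over the square root of F. Profiles used log2 CPM with a prior count of 2. Arm ratios had 0.5 added to each count and were tested by sign flips over the 6 libraries (scipy 1.17.1). The members and lists were chosen with earlier results of these data known. Named miRNAs were the members, the 3 tested miRNAs closest to each in profile, those sharing a seed, and of each list those past the threshold or else its 2 most abundant. The closest sequences, miR-21a-5p, and miR-675-5p, miR-122-5p, miR-199b-3p and miR-10b-5p of the lists were named outside this rule, after their values were seen.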

Additional observations from a re-analysis of the deposited data

How the results depend on the processing

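Alternatives were no TMM factor, upper-quartile and RLE factors, no filter, a filter of 50 counts, the DESeq2 Wald test, limma-voom, no robust option, pseudocounts of 0 and 5 for the arm ratios, and leaving out each library. The count of 25 miRNAs fell to 13 with the filter of 50 counts, where fewer miRNAs were tested, and ran from 9 to 32 without a library. Scaling moved the median log2 fold change of all tested miRNAs from -0.01 to 0.13 with no TMM factor and to -0.10 with upper-quartile factors, and moved the members alike. The values of the members below describe the contrast that chose miR-455 and show no stability of a test. miR-455-5p ran from -1.02 to -0.79 over the 14 other fits. miR-455-3p stood at -0.88 with no TMM factor, where it left the called set, and from -1.15 to -0.87 without a library. miR-140-5p turned to 0.0087 with no TMM factor and ran from -0.27 to 0.027 without a library. The miR-140-3p value lay between 0.12 and 0.35. With 5 libraries the exact permutation test cannot reach 0.05 (smallest p 0.0625). Without a library the mean log2 arm ratio ran from 2.68 to 2.85 for miR-455, from -1.54 to -1.41 for miR-140 and from 4.11 to 4.39 for their difference, and the log2 ratio of miR-140 to miR-455 from -0.28 to 0.021. For the other changes the cause was not tested. No paired analysis was possible because replicate numbers were given in accession order and pair no animals. The lowest member count, 70, limits the precision of miR-455-3p.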
